A study of Drosophila melanogaster with 14 samples.

Results

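The RNA of cells treated against Sex combs extra (Sce) was compared directly with that of cells treated against Polycomb (Pc), without the mock-treated reference entering the ratio. Of the 14 total RNA libraries of the series, 5 belong to this comparison, 3 labelled Sce and 2 labelled Pc, and all 7624 genes of the deposited table were compared. All libraries came from ML-DmBG3-c2 (BG3) cells, a Drosophila melanogaster line established from central nervous system tissue of larvae, grown in Schneider's medium with serum and insulin. Double-stranded RNA (dsRNA) against the target was added to the medium of the Sce, Pc and Ph (Polyhomeotic) groups; 3 libraries are labelled Ph and 6 Mock. The labels do not give the amount of dsRNA or the length of treatment for single libraries, nor whether replicates were separate cultures.

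Sce and Pc are subunits of Polycomb Repressive Complex 1 (PRC1), which holds developmental genes silent. Sce is the ring finger subunit that attaches ubiquitin to histone H2A. Pc carries a chromodomain that binds the trimethylated lysine placed on histone H3 by Polycomb Repressive Complex 2 (PRC2). Hox genes, which give body segments their identity, are the classical genes kept silent by both complexes in cells where they are not used. The direct ratio asks where RNA levels differ between cells treated against the one or the other subunit.

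Each value is the signal of a gene averaged by the authors over the libraries of a group, on columns with nearly equal totals. Because only means entered, no spread between the 3 and 2 libraries stands beside them and no test of Sce against Pc was possible. A gene is called higher or lower where the means differed at least 2-fold on the log2 scale with a pseudocount of 1, which is a size and not a test. The words rose and fell are kept for genes with a q-value under 0.05 against Mock in the authors' deposited table. The depth of each library is unknown, and whether signal was divided by gene length is not given, so levels of different genes are not ranked. Of the neuronal marker symbols looked for, 4 were listed, and brp, nSyb and Syt1 were not among them. The neuronal RNA-binding protein gene elav was listed at 16273 with Sce and 19887 with Pc. Of the 4, GABA-B-R3 alone had a ratio of Sce over Pc above 1, at 93582 and 76202. Ace alone was at least 2-fold lower with Sce, at 5.99 against 87.42. The median log2 ratio of the 4 was -0.23. The glial factor repo was listed at 6081 with Sce and 13815 with Pc.

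The targeted genes carried the most signal in the group treated against them. The authors' mean of Sce was 681672 in the group labelled Sce and 22122 in the group labelled Pc, with 25261 in Mock. The authors' mean of Pc was 136729 in the group labelled Pc and 6768 in the group labelled Sce, with 6367 in Mock. These ratios were 30.8 for Sce and, in the other direction, 20.2 for Pc. Both go against the labelled depletion. Whether the added dsRNA was counted with the transcripts was not tested, so directions below are those of the labelled groups. The paralogs ph-p and ph-d, which encode Polyhomeotic, were targeted in neither group and stood at 0.748 and 0.692 of their level with Pc.

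Most genes stood at nearly the same level in both groups. The median log2 ratio of Sce over Pc was 0.01, and 6440 genes (84.5%) differed less than 1.5-fold. In all, 205 genes (2.69%) were higher and 358 (4.7%) lower with Sce than with Pc. Below the median level, 172 (4.51%) were higher and 323 (8.47%) lower, while at or above it 33 (0.866%) were higher and 35 (0.918%) lower. The level used here is the mean of the Sce and Pc means, and its median was 20969. The standard deviation of the log2 ratio was 0.92 below that level and 0.36 at or above it. Just inside the 2-fold limit lay CG31140 (2230 with Sce, 1114 with Pc) and blot (1443 and 2888). Just outside it lay CG18170 (523 and 261) and CG14757 (613 and 1225). Among the called genes, 13 were listed at a column's minimum, 0.77 with Sce or 0.65 with Pc, and no fold is given for these.

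**Figure D1:**
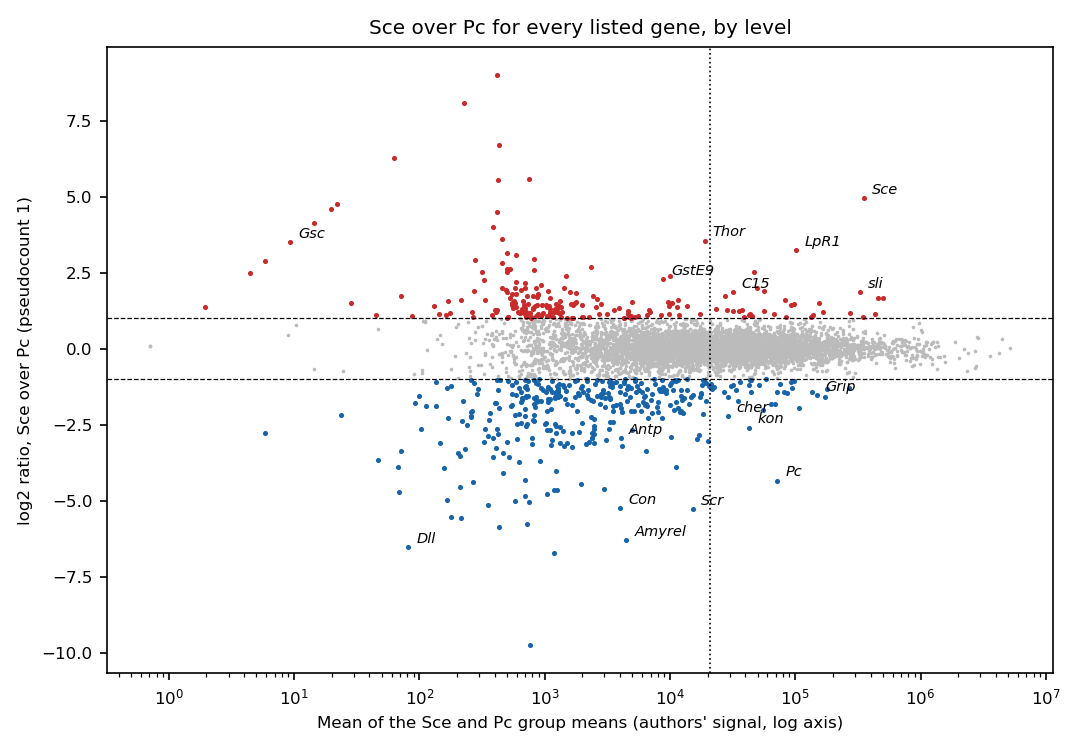
Each point is a gene, with the mean of its Sce and Pc group means on a log x axis and the log2 ratio of Sce over Pc (pseudocount 1) on the y axis; colours mark genes at least 2-fold higher or lower with Sce, dashed lines the 2-fold limits and the dotted line the median level of 20969. The scatter narrows to the right, and Sce, Pc and LpR1 stand outside it at high level.

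Hox genes were lower with Sce than with Pc in every listed case. Of the 8 Hox genes, 5 were listed, and the ratio of Pc over Sce ran from 2.80 for Abd-B to 38.5 for Scr, with a median log2 ratio of Sce over Pc of -2.94 beside 0.01 for all genes. The authors' mean of Scr, which specifies the first thoracic and labial segments, was 774 with Sce and 29800 with Pc, with 1.40 in Mock and 3796 with Ph. Antp, a thoracic Hox gene, stood at 929 with Sce and 7149 with Pc, with 11.8 in Mock and 8938 with Ph. Each of these genes was thus nearly silent in Mock, and the Sce mean lay between Mock and Pc.

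The Hox genes of the bithorax complex, which act in the posterior thorax and abdomen, also had Sce between Mock and Pc. Abd-B stood at 9393 with Sce and 26282 with Pc, with 13.7 in Mock and 28606 with Ph. The means of abd-A were 76.2 and 744, and those of Ubx were 57.4 and 284, with Sce and with Pc. In Mock they were 9.16 for abd-A and 5.18 for Ubx, and with Ph 2937 and 4261. By size, Ubx and abd-A were far higher with Ph than with Pc, while Scr was higher with Pc than with Ph. Every gene in the table reached 798.3 in at least 1 group, and Ubx and abd-A did so with Ph alone. For both genes, Ph above Pc was thus fixed by their being listed. All 5 rose with Pc (background 3.04% of all genes) and Abd-B alone rose with Sce (background 0.236%), where the authors' deposited table gave q-values from 0.000 to 0.002 with Pc, and 0.045 for Abd-B with Sce. The difference between those calls was not tested. All 5 were under 798.3 in Mock, so each was listed only through a treated group. Of all 7624 genes, 7261 reached that value in Mock, so these backgrounds are not a like comparison. The noncoding RNA msa, which lies between abd-A and Abd-B and was named after its values were seen, stood at 50.03 with Sce and 149.87 with Pc. Of the exonic bases of Antp 50.1%, and of those of msa 55.4%, are shared with other annotated genes, from which their reads may not be told apart.

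Developmental regulators outside the Hox clusters went both ways. Of 36 listed factors of the homeobox, T-box, paired-box and zinc finger families, 19 were lower and 3 higher with Sce, beside 4.7% and 2.69% of all genes. Of the 763 genes with the lowest levels, up to 1837, 22.3% were lower and 17.4% higher. The median log2 ratio of the regulators was -1.26, which turned to 0.040 among the 14 with both means of at least 798.3. In Mock, 22 of the 36 were under that value, which every gene in the table reached in at least 1 group. The zinc finger paralogs salr and salm, which act in appendages and sense organs, stood at 554 and 294 with Sce and at 4203 and 1895 with Pc. The GATA factor grn had means of 421 with Sce and 2892 with Pc, and the muscle homeobox gene Dr had 433 and 3824. These genes were low in Mock, between 5.37 for salm and 108 for salr.

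The paired-box gene Poxm had means of 6297 with Sce, 22081 with Pc and 536 in Mock. The homeotic zinc finger gene tsh had 10934, 25045 and 1660 in the same groups, and its paralog tio had 33.9, 1131 and 42.0. Both tsh and Poxm were thus above Mock in each labelled group, whereas tio was above Mock only with Pc of these, by size. In the eye, so and Optix act together, and so had means of 358 with Sce and 2098 with Pc, against 88.8 and 430 for Optix. Dll, the homeobox gene of distal limbs, was listed at the column's minimum with Sce and at 162 with Pc. Of the 10 regulators at or above the median level 0 were lower, and their median log2 ratio was 0.23.

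The regulators that were higher with Sce were C15, en and Gsc. C15, a homeobox gene of distal leg patterning, had means of 49961 with Sce, 13739 with Pc, 119290 in Mock and 11201 with Ph. It therefore lay below Mock in all 3 treated groups and least so with Sce. In the authors' deposited table it fell with Pc (q = 0.034, background 0.144% of all genes) and with Ph (q = 0.011, background 0.367%), and its q-value with Sce was 0.196. The segment polarity gene en had means of 2280 with Sce and 565 with Pc, with 1448 in Mock. The homeobox gene Gsc was at the minimum with Pc and at 17.9 with Sce.

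**Figure D2:**
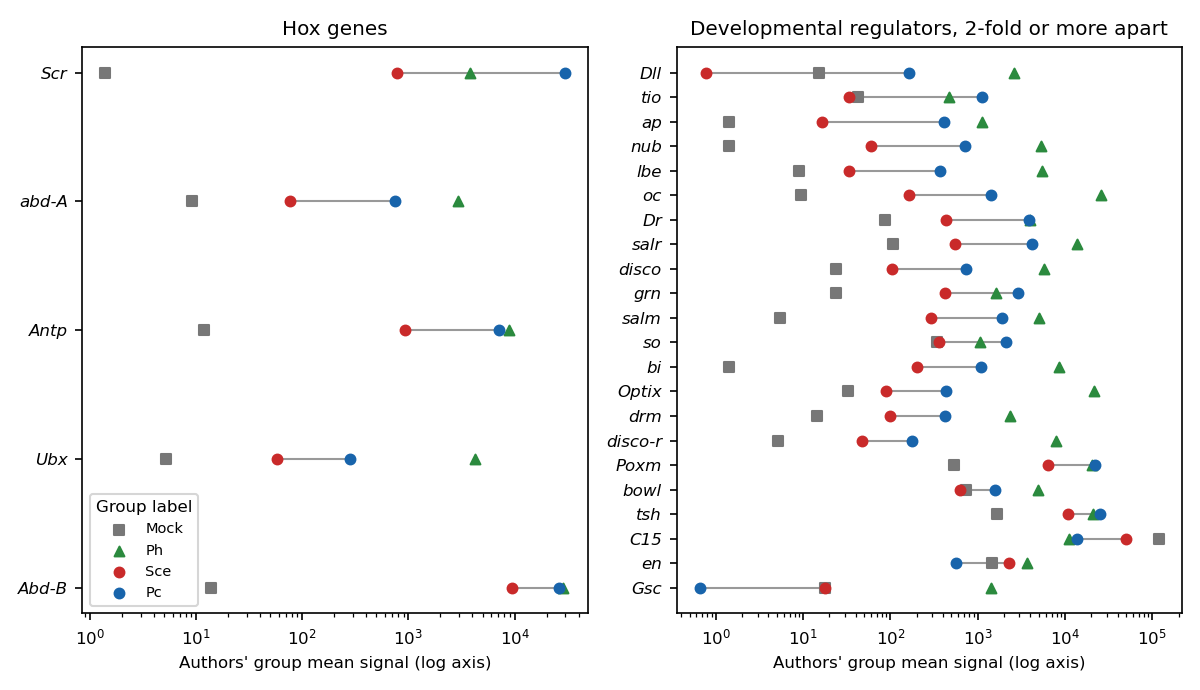
Authors' group means on a log x axis for the 5 listed Hox genes and the 22 developmental regulators at least 2-fold apart, by group label; the grey line joins Sce and Pc. All 5 Hox genes have the Sce point to the left of Pc and to the right of Mock, and C15, en and Gsc are the regulators with Sce to the right of Pc.

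Of 10 listed segmentation genes 5 were lower, beside 4.7% of all genes and 22.3% of the 763 genes with the lowest levels. In Mock, 8 of the 10 were under 798.3. Among the 5 were the posterior homeobox gene cad, at 316 with Sce and 2971 with Pc, and the forkhead gene croc, at 235 and 5730. Of 5 neural precursor genes 3 were lower. The authors' mean of pros, which ends neuroblast self-renewal in daughter cells, was 4343 with Sce and 35847 with Pc, with 970 in Mock. SoxN, which acts in the early neuroectoderm, had means of 88.2 with Sce and 688 with Pc. With 35.0 in Mock and 19970 with Ph, SoxN reached 798.3 with Ph alone. The only neural precursor gene at or above the median level was brat, at 137874 with Sce and 130677 with Pc. The median log2 ratio of the segmentation list was -0.98, and 0.41 for the 2 members with both means of at least 798.3.

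Of 10 listed glial genes 5 were lower with Sce and 1 higher, beside 4.7% and 2.69% of all genes. Of the 10, 3 had a ratio above 1, beside 51.2% of all genes. The glial factor repo had the means given above, against 2567 in Mock and 138658 with Ph. The secreted axon-glia gene axo had 3068 with Sce and 13123 with Pc, and the septate junction gene Gli had 12151 and 26802. The exception was wrapper, which encodes a midline glia surface protein, at 7467 with Sce and 2581 with Pc. Of 10 hemocyte genes, Hml and eater were lower, and the blood cell GATA factor srp stood at 118878 with Sce and 74647 with Pc. Of 6 muscle genes 3 were lower, including the mesodermal factor twi, at 24.98 with Sce and 1410.70 with Pc. In Mock, 2 of the 6 were under 798.3. The 2 muscle genes with a ratio above 1 were Tm1, at 76075 with Sce and 62555 with Pc, and Mef2, at 45632 and 41804. Fewer cells of a type and less RNA per cell cannot be told apart in these bulk samples.

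Several signalling genes differed while most members of their pathways did not. Of 20 listed Notch pathway genes 6 were lower, beside 4.7% of all genes and 22.3% of the 763 genes with the lowest levels. In Mock, 4 of the 20 were under 798.3, and of the 11 at or above the median level 0 were lower. Among the 6 were transcription factor genes of the Enhancer of split complex. HLHm3 had means of 1132 with Sce and 11725 with Pc, with 1498 in Mock, and HLHm7 had 13.6 and 847. The Notch receptor gene N itself stood at 137747 with Sce and 223076 with Pc. Of 27 listed genes of EGF and FGF receptor signalling 5 were lower. Among these, rho, whose product cleaves precursors of EGF-like ligands, had 46738 with Sce and 104360 with Pc, and the FGF adaptor gene stumps had 8966 and 29839. The FGF ligand gene bnl had 553 with Sce and 4236 with Pc, with 3318 in Mock and 1811 with Ph. By size Sce was here farther from Mock than Pc, although its q-value with Sce was 0.344 in the authors' deposited table.

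Other ligands went either way. Of 21 listed Wnt pathway genes, the ligands Wnt4 and wg and the receptor gene drl were lower (background 4.7% of all genes), with Wnt4 at 3093 with Sce and 9296 with Pc. Of 20 listed genes of the Dpp and activin pathways, the ligand dpp, its antagonist sog and the T-box target bi were lower, while the activin ligand daw was higher, at 228537 with Sce, 80250 with Pc and 90900 in Mock. In the JAK-STAT list of 11, chinmo and the ligand upd2 were lower, at 253 and 1564 with Sce against 2031 and 4256 with Pc. Of 15 Hedgehog pathway genes 0 differed 2-fold, and the receptor gene ptc stood at 54547 with Sce and 75457 with Pc.

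Genes with only CG or CR numbers and small RNAs are left out of the ranking here. Among the other lower genes at or above the median level, the lowest ratio after that of Pc itself was that of kon. This gene, which encodes a transmembrane proteoglycan of muscle attachment, had means of 12155 with Sce and 73433 with Pc, against 19214 in Mock and 51726 with Ph. The filamin gene cher had 10387 with Sce, 48125 with Pc, 5785 in Mock and 81027 with Ph. Nrg, an L1-type adhesion molecule of neurons and glia, had 28305, 98984, 27058 and 82777 in the same order. For Nrg the Sce mean lay next to Mock, and for kon it lay below Mock.

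The receptor tyrosine kinase gene Alk had means of 30499 with Sce, 106358 with Pc, 30810 in Mock and 16008 with Ph. Of the 4 groups Alk was high with Pc only by size, although its q-value in that group was 0.203 in the authors' deposited table. The polarity kinase gene aPKC had 85783 with Sce, 258633 with Pc and 53614 in Mock. Grip, which encodes a scaffold protein, had 76851, 222250 and 16944 in the same groups. Both aPKC and Grip rose in each group, for which the authors' deposited table gave q-values of 0.018 and 0.006 with Sce, and of 0.008 and 0.000 with Pc. Their ratios of Pc over Sce were 3.01 and 2.89.

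The remaining named genes of this set were rols, Cht2, zormin, osp, sdk, LamC, mfas and CBP. The myoblast fusion scaffold gene rols had 38657 with Sce and 104673 with Pc, and the Ig-type adhesion gene sdk had 102715 and 258110. For CBP the Sce mean was far below Mock by size, at 16317 with Sce, 54038 with Pc and 55430 in Mock. Its q-value with Sce was 0.312 in the authors' deposited table. The others had ratios of Pc over Sce between 2.34 for mfas and 2.70 for Cht2. Below the median level, the lowest ratios included the amylase-related gene Amyrel, at 111 with Sce and 8839 with Pc, and Con, a homophilic adhesion gene, at 204 and 7752.

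Of 26 listed genes of axon guidance and adhesion 4 were lower (background 4.7% of all genes) and sli alone was higher (background 2.69%). The Ig-type adhesion gene Fas2 had means of 58947 with Sce, 125151 with Pc and 35725 in Mock, and Fas3 had 4602, 12010 and 2405. Ama, a secreted Ig protein gene, had 3769 with Sce and 29381 with Pc, with 6540 in Mock and 216074 with Ph. Of 18 integrin and matrix genes Timp, an inhibitor of matrix proteases, was the only one lower, at 9420 and 26046. Of 23 immune genes 4 were lower, among them the peptidoglycan receptor gene PGRP-LC, at 1729 with Sce and 4733 with Pc.

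**Figure D3:**
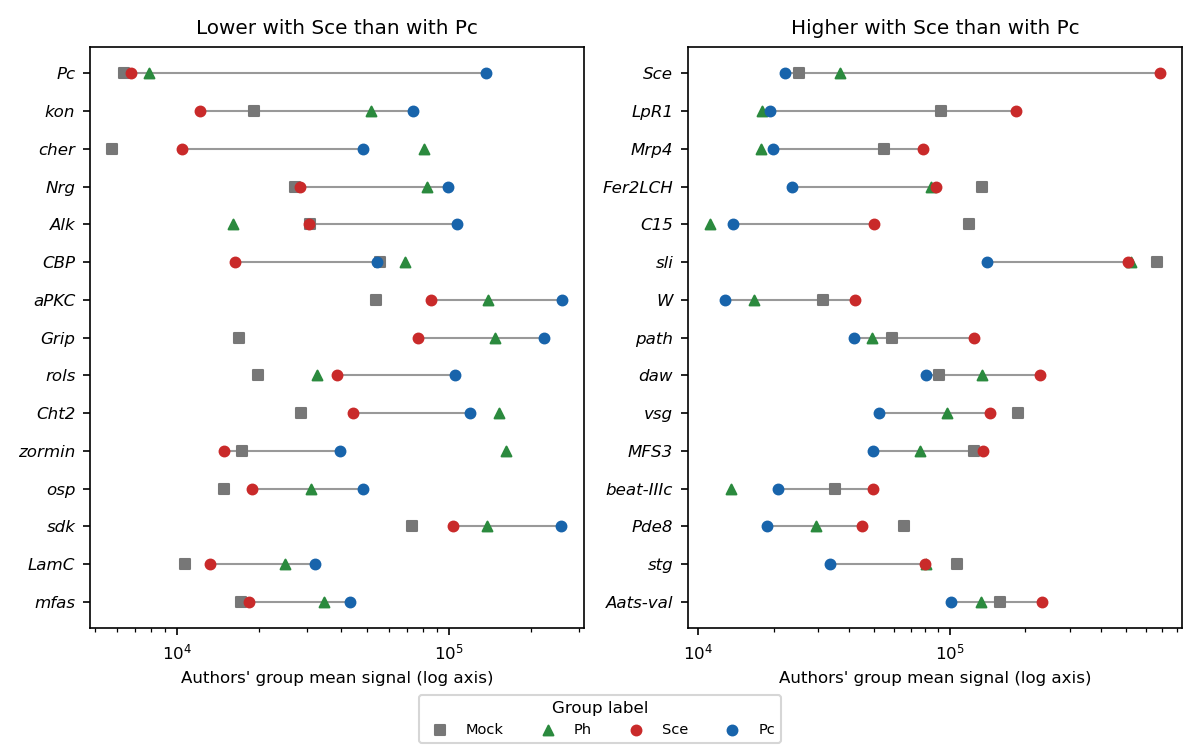
Authors' group means on a log x axis for the genes with the 15 lowest and the 15 highest ratios of Sce over Pc from the median level upward, by group label. Genes with only CG or CR numbers and small RNAs are left out, some of which had larger ratios, such as CG1673. The grey line joins Sce and Pc. Among the lowest, kon and CBP have the Sce point to the left of Mock, and Grip has it to the right; among the highest, LpR1 and path have it to the right of Mock and C15 and Fer2LCH to the left.

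Among higher genes at or above the median level, LpR1 had the largest ratio after Sce itself, leaving out genes with only CG or CR numbers and small RNAs. The lipophorin receptor gene LpR1 had means of 183731 with Sce and 19342 with Pc, with 92674 in Mock and 17919 with Ph, a ratio of 9.50. Its paralog LpR2 had 158115 with Sce and 80086 with Pc. In the group labelled Sce, LpR1 had a q-value of 0.448 in the authors' deposited table, so its distance from Mock did not pass there. The ABC transporter gene Mrp4 had 78457 with Sce, 19812 with Pc and 54900 in Mock, and the amino acid transporter gene path had 125411, 41519 and 59236.

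The subunit genes of secreted ferritin differed unequally. Fer2LCH, the light chain, had 88250 with Sce, 23548 with Pc and 134094 in Mock. Fer1HCH, the heavy chain, named after its values were seen, had 219956, 167488 and 185650. Other genes in this set were the axon guidance ligand sli, at 511468 with Sce and 141112 with Pc, the cell death gene W (now hid), at 42197 and 12820, and the mitotic phosphatase gene stg, at 79469 and 33468. For sli and stg the Sce mean was below Mock as well, at 664754 and 107044 in Mock. The insulin-binding protein gene ImpL2 had 376815 with Sce and 167488 with Pc, and 61.9% of its exonic bases are shared with another annotated gene.

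Aminoacyl-tRNA synthetases load transfer RNAs with their amino acids. Of 20 listed synthetase genes 19 had a ratio above 1, beside 51.2% of all genes, and the exception was Aats-phe at 0.984. The median log2 ratio was 0.44, and 3 of the 20 were at least 2-fold higher (background 2.69% of all genes). Aats-val had means of 233483 with Sce, 101327 with Pc and 157943 in Mock, and Aats-asn had 589605, 269251 and 378059. For both genes Sce lay above Mock and Pc below it. The median ratio to Mock over the list was 1.32 with Sce and 0.939 with Pc in the authors' deposited table, where no member passed in either group.

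Thor, the translation inhibitor 4E-BP, had 34801 with Sce and 2959 with Pc, with 11321 in Mock and 3384 with Ph. Its ratio of 11.8 was based on means for which the authors' deposited table gave q-values of 0.329 and 0.355 against Mock. Of the 35 translation factors listed, Thor among them, 25 had a ratio above 1 and Thor alone differed 2-fold. CG1673, which RefSeq names Bcat, a branched-chain amino acid aminotransferase, was named after its values were seen and had 79349 with Sce and 13809 with Pc. The bZIP factor gene crc, the fly ATF4, also named after its values were seen, stood at 539474 and 510982, and 73.5% of its exonic bases are shared with another annotated gene.

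**Figure D4:**
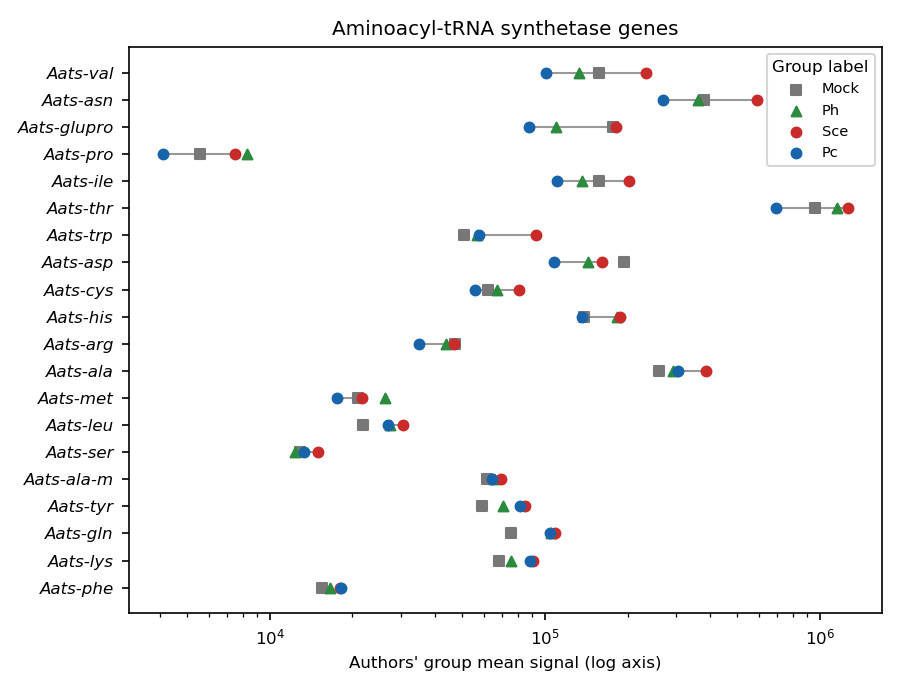
Authors' group means on a log x axis for the 20 listed aminoacyl-tRNA synthetase genes, ordered by the ratio of Sce over Pc, by group label; the grey line joins Sce and Pc. The Sce point lies to the right of Pc for 19 genes, and the distance is under 2-fold for all but Aats-val, Aats-asn and Aats-glupro.

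Further genes were higher with Sce, of which GstE9 and bam are members of no list. The glutathione transferase gene GstE9 had means of 14541 with Sce, 2960 with Pc and 9107 in Mock. The piRNA pathway gene aub had 15193 with Sce and 5409 with Pc, with 14160 in Mock. The germline gene bam had 1113 with Sce, 331 with Pc and 369 in Mock, so here Pc lay nearer to Mock. The dosage compensation RNA roX1 had 587 with Sce and 242 with Pc, with 1851 in Mock, while roX2 had 57999, 48653 and 147897.

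Housekeeping and chromatin genes differed little. Of 10 listed PRC1 genes only the targeted Sce and Pc differed 2-fold, and Psc and its paralog Su(z)2 had means of 86242 and 256371 with Sce and of 77736 and 286541 with Pc. Of 11 PRC2 and PhoRC genes and 19 Trithorax group genes 0 differed 2-fold, with median log2 ratios of 0.03 and -0.03. The histone methyltransferase gene E(z) of PRC2 stood at 29348 with Sce and 28502 with Pc. The 87 cytosolic and 74 mitochondrial ribosomal protein genes had median log2 ratios of 0.05 and 0.05, and the 32 proteasome genes -0.04. Of 41 genes of DNA replication and mitosis 31 had a ratio above 1, with a median of 0.15. Of 96 copies of replication-dependent histone genes 82 were below 1, with a median of -0.27, and how reads were shared among such similar copies is uncertain.

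**Figure D5:**
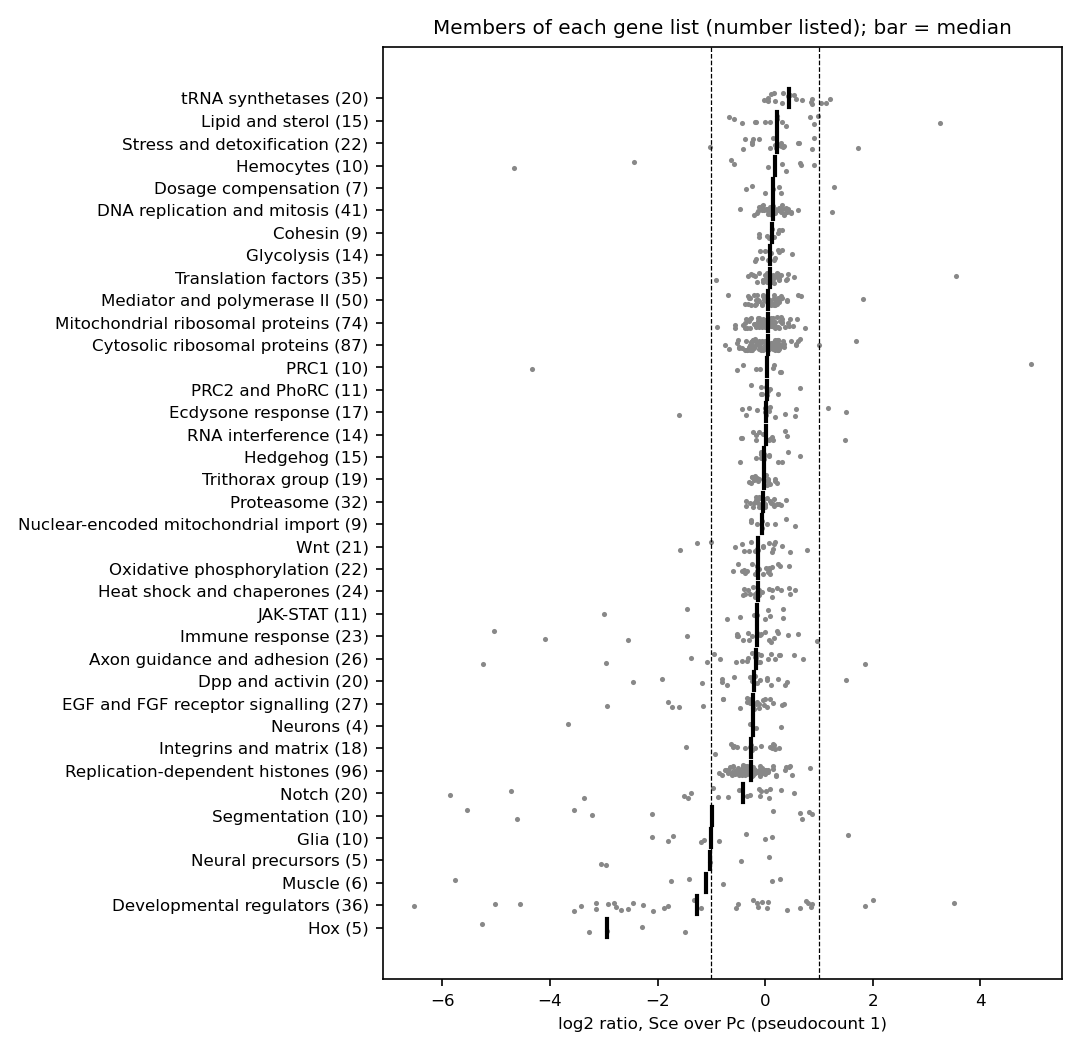
Log2 ratios of Sce over Pc (pseudocount 1) of the members of 38 gene lists, with the number listed in parentheses; each point is a gene, black bars are medians and dashed lines the 2-fold limits. Hox genes have the lowest median (-2.94) and tRNA synthetases the highest (0.44).

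The Sce and Pc means that set the 2-fold calls do not include the Ph and Mock libraries, but every listed gene reached 798.3 in at least 1 of the 4 groups, so Ph and Mock may bear on which genes are in the table. At or above the median level, 0 genes reached 798.3 through Ph or Mock alone, which follows from that level lying far above 798.3. Since the level is the mean of the Sce and Pc means, a lower gene can reach it through a high Pc mean. An example is cher, at 10387 with Sce, 5785 in Mock and 48125 with Pc. The shares of all genes at that level are therefore not a like comparison, and those below are descriptions only. At that level, 10 of the 35 genes lower with Sce rose with Ph by q-values in the authors' deposited table, beside 3.17% of all genes. By size, 17 of the 35 (48.6%) were at least 2-fold higher with Ph than in Mock, beside 2.62%, and 4 (11.4%) at least 2-fold lower, beside 3.65%. Of the 33 genes higher with Sce, 10 (30.3%) were at least 2-fold lower with Ph than in Mock and 0 at least 2-fold higher.

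Over all levels the sets went both ways with Ph. Of the 358 genes lower with Sce, 91 (25.4%) rose with Ph, beside 3.52% of all genes, by q-values in the authors' deposited table. By size, 211 of them (58.9%) were at least 2-fold higher with Ph than in Mock and 39 (10.9%) at least 2-fold lower, each beside 6.6% of all genes. Of the 211, 46 reached 798.3 with Ph alone, among them Ubx, abd-A, Optix and disco. Of the 205 genes higher with Sce, 5 (2.44%) rose with Ph and 3 fell, beside 3.52% and 0.367% of all genes. By size, 38 of the 205 (18.5%) were at least 2-fold higher with Ph than in Mock and 51 (24.9%) at least 2-fold lower, and 20 of the 38 reached it with Ph alone. Reaching it with Ph alone makes a high ratio to Mock likely, so the shares over all levels are also descriptions only.

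The medians of the group means describe the same sets. Over the 358 lower genes the median of the authors' means was 787 with Sce, 3278 with Pc, 1046 in Mock and 3720 with Ph. Over the 205 higher genes it was 1518, 583, 1400 and 1424 in the same order. Among the 358, 111 rose with Pc and 4 with Sce. At or above the median level, 15 of 35 rose with Pc (background 2.57%) and 2 with Sce (background 0.289%). The Sce and Pc medians and these counts share libraries with the rule that chose the genes, and nothing is read from them.

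With RefSeq gene order (Release 6), 7471 genes were matched, of which 346 were lower and 198 higher with Sce. Of 7464 pairs of neighbouring listed genes, 53 (0.71%) were both lower, taking in 100 genes. Both members were higher in 8 pairs (0.107%), and 14 pairs (0.188%) had a higher and a lower member. The number of pairs to be had from the shares of called genes alone was not computed. The runs, picked after their values were seen, included Ama, Scr and Antp, and Ubx, abd-A, msa and Abd-B. They also included salr with salm, disco with disco-r, Ndae1, Wnt4 and wg, and Alk, Amyrel and Picot. Neighbours that overlap may share reads, since whether strand was used in counting is not given. By chromosome arm the share of lower genes ran from 4.07% on X to 5.23% on 2R, leaving out the small chromosome 4 with 2 of 58. Across 7471 genes the Spearman rho of the log2 ratio with exonic length was 0.03, as a description.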

How the data were processed

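Libraries were made from RiboMinus-treated total RNA with Ion Total v2 kits, per the labels' protocols. The deposited table gives, per the file headers, the authors' averaged signal for each group, its ratio to Mock, and p-values and q-values to 3 decimals. The submitters' processing notes name bedtools; no source used here gives the aligner, build, annotation, strand use, normalization or test. The Sce and Pc columns summed to totals 0.0175% apart, so the signal had been scaled. The highest of the 4 group means was never under 798.3. The table held 0 columns of single libraries, so the test planned for such columns was replaced by values and folds, and no p-value was computed. Another 3 columns of means, marked nt.gene, fit no sample title and entered no comparison.

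Log2 ratios of Sce over Pc used a pseudocount of 1 (pandas 2.3.3, numpy 2.4.6; counting was tested on simulated data). Members and lists were chosen with earlier results of these data known. Genes were named by rule: the targeted genes, the 15 largest ratios each way at or above the median level, the 8 largest each way below it with a higher mean of at least 1000, Polycomb and Hox genes, and up to 4 members per list. The ratio ranks skipped genes with only CG or CR numbers, and small RNAs. List members at least 2-fold apart outside this rule, elav, Aats-phe and the genes at the 2-fold limit were named after their values were seen. From 38 lists, 8 genes taken by name patterns in error were left out. Exonic lengths came from Ensembl BDGP6 annotation and neighbours from RefSeq. Replicates entered only through the authors' means, and alternatives changed the pseudocount, filter, scaling and fold.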

Additional observations from a re-analysis of the deposited data

Results flagged for a closer look

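The nt.gene columns, which entered no comparison, held a signal for LamC, the A-type lamin gene. Its ratio of Sce to Mock there was 5.376 in the authors' deposited table, with a q-value of 0.000 at 3 decimals, while its ratio in total RNA was 1.24 (q = 0.532) in the authors' deposited table. It was picked out because it was the gene named by the rule or from the lists with a ratio of at least 2 and a q-value under 0.05 in those columns. What those columns measured is stated by no header or label.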

How the results depend on the processing

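The counts of 205 higher and 358 lower genes kept within 1.5 times under a pseudocount of 100 (161 and 327), centring on the median of all genes (200 and 362) and rescaling without the targeted genes (206 and 357). They dropped to 69 and 195 with a pseudocount of 798.3, to 81 and 179 among the 7097 genes with both means at or above that value, and to 72 and 203 at 3-fold. The larger pseudocount and the filter act on genes with low means by construction. With that filter, which left 14 of 36 developmental regulators, their median log2 ratio was 0.040 instead of -1.26, so the direction of that list rests on genes with little signal in at least 1 of the groups; the segmentation median went from -0.98 to 0.41 (2 genes), the muscle median was -0.33 (4 genes), and the Hox median was -2.21 (2 genes). With the pseudocount of 798.3 and all listed members, the Hox median moved from -2.94 to -1.41, the developmental regulators to -0.35 and segmentation to -0.24; with a pseudocount of 100 the Hox median was -2.26. The tRNA synthetase median stayed between 0.43 and 0.44 under these alternatives. No paired analysis was possible because the columns are group means and carry no replicate numbers; leaving out single libraries was not run for the same reason. A mean of 2 or 3 libraries may rest on 1 of them, which these means cannot show, and depth is unknown.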
